A study of Mus musculus with 38 samples.

Results

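The genes described here are 10 lipogenic enzymes and activators, followed through 38 liver RNA-seq libraries in 9 groups. They were chosen by symbol, as the rows of the 2 expression tables named Fasn, Acaca, Acacb, Acly, Scd1, Elovl6, Thrsp, Me1, Pnpla3 and Mlxipl, and all 10 were found in both tables among 21644 genes. In the R26 system, where the doxycycline-dependent activator rtTA comes from the Rosa26 locus and so is not limited to hepatocytes, the strains were R26-rtTA livers that were wild type (WT, 4 libraries), tet-Myc (4), tet-YAP (6) or tet-Myc/YAP (3), with 2 days on doxycycline food given for the transgenic groups. The titles of the WT libraries give no induction time, and the paper does not state separately whether WT mice had the same food. In the LAP system, where the LAP promoter drives tTA in hepatocytes, WT, tet-Myc and the double transgenic tet-Myc/YAP group had 3 libraries each and tet-YAP had 4, with 4 weeks given for the transgenic groups, and 8 further libraries came from tumours of tet-YAP mice. The WT groups carry the activator transgene of their system (R26-rtTA;WT and LAP-tTA;WT), and the tet-YAP mice carry an activated mutant of YAP at the Col1A1 locus, so their groups model activated YAP and not more of the normal protein. Age, the feeding state and the hour of collection are not given in the sources used here, and neither is whether libraries or tumours came from separate animals, so the p-values measure only the spread between libraries. Libraries are numbered within a group in the order of the table.

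Liver cells make fatty acids from the carbon of glucose. Acly, ATP citrate lyase, splits citrate to acetyl-CoA in the cytosol. Acaca and Acacb, the acetyl-CoA carboxylases, turn it into malonyl-CoA, which in the case of Acaca feeds synthesis and in the case of Acacb, found at mitochondria, restrains the entry of fatty acids for oxidation. Fasn, fatty acid synthase, builds palmitate with NADPH that malic enzyme, Me1, helps to supply, Elovl6 lengthens it, and Scd1 adds a double bond. Mlxipl encodes ChREBP, a transcription factor that answers to glucose, Thrsp encodes a small nuclear and cytosolic protein that promotes lipogenesis, and Pnpla3 encodes a lipid droplet protein whose gene responds to feeding. Insulin acting through SREBP-1c (Srebf1) and glucose acting through ChREBP raise many of these genes after a meal, and fasting lowers them.

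The promoters of these genes are shown because most of the genes were lower together in the YAP groups. RefSeq (GRCm38.p6) gave 11 windows of 300 bases, 250 before to 50 after a start, for 9 of the 10 genes, with none for Scd1. They were searched on both strands for CACGTG (E-box), TCACNCCAC (a sterol response core), CATTCC (TEAD), CCAAT (NF-Y) and GGGCGG (Sp1). CCAAT stood in 7 of the 11 windows, against 37.4% of all 32851 windows, and GGGCGG in 4 of 11, against 35.7%. The E-box, the sterol response core and the TEAD letters each stood in 1 of 11 windows, against 7.15%, 1.24% and 14.7% of all windows. These matches are a description of letters, with no test. The windows of Fasn (chr11:120824498-120824797, minus strand), Thrsp (chr7:97417501-97417800, minus strand), Acacb (chr5:114165268-114165567, plus strand) and Mlxipl (chr5:135089640-135089939, plus strand) are printed 5′ to 3′ with every match in capitals. Fasn and Thrsp are shown for paired CCAAT matches close to the start, Acacb as the gene with the lowest levels in tumours, and Mlxipl for the only E-box.
Fasn: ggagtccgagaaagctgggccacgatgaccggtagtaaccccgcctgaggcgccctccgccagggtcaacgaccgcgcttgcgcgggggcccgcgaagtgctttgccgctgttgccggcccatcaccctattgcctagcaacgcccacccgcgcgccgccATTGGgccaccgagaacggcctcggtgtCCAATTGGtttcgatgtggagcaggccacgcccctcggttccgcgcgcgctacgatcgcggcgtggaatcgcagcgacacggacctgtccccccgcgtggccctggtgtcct
Thrsp: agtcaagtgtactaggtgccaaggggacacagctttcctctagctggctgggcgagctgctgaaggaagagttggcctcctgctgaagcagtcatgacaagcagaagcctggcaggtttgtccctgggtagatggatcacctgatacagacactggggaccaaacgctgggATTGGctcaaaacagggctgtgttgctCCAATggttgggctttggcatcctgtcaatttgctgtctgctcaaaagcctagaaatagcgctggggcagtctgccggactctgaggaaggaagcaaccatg
Acacb: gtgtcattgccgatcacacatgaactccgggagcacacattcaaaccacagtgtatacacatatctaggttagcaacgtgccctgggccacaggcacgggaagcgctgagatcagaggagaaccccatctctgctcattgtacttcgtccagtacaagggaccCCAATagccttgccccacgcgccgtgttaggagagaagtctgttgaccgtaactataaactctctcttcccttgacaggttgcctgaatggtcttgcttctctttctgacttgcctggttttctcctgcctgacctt
Mlxipl: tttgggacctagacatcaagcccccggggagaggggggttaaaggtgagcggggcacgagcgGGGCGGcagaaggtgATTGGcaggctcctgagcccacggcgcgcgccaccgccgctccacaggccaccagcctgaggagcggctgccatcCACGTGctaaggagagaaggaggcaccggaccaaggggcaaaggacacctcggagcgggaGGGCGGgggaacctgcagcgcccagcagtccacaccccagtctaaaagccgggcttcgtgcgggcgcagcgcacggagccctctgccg
In Fasn the matches began 90, 62 and 59 bases before the start, the last 2 overlapping, and in Thrsp 79 and 52 bases before it. In Acacb the single CCAAT lay 87 bases before the start used, which lies inside the gene (chr5:114146321-114250761) and not at its outer end. The Fasn window also lies inside its gene (chr11:120805958-120825166), and so does the Acaca window, which held no match. The same holds for the Me1 window with the TEAD letters and the Mlxipl window with the sterol response core. In Mlxipl the E-box lay 98 and the CCAAT 173 bases before the start.

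Levels are RPKM, read counts scaled by the length of the gene and the depth of the library, as deposited, and 1 RPKM was an estimated 23.5 to 56.3 reads per kilobase of gene. Differences are on the scale log2(RPKM + 0.5), which understates the change of low genes, with their standard error (SE), from 1 limma fit per system over 11263 (R26) or 12591 (LAP) genes. A gene was called when the Benjamini-Hochberg adjusted p was under 0.05 and the log2 difference at least 0.5 in either direction, and all 10 genes passed the filter of 1 RPKM in 3 libraries in both systems. Counts of genes whose libraries did not overlap between groups are given without the share over all genes and carry no test. The most abundant genes of each library ended at a common ceiling of 28.7 to 67.3 RPKM, lower in deeper libraries. Thrsp in LAP WT stood at 100.6% to 107.1% of it and Scd1 at 94.8% to 98.4%. Differences of such genes may be understated where they were near it, and their RPKM may also shift with the ceiling between groups. By Xist and Y-linked genes, 17 libraries had a female and 21 a male pattern. Close pairs of libraries, which differed by only 1.22 to 2.09 times counting noise, were WT 1 with 4, WT 2 with 3, tet-YAP 1 with 4, 2 with 5 and 3 with 6, and tet-Myc/YAP 1 with 2 in R26, and tet-YAP 3 with 4 in LAP at 1.89, while all other pairs within an R26 group differed by 2.34 to 8.74 times. The defining markers of hepatocytes were present in every library, with a summed level of 8 genes of 193 to 420 RPKM in R26 and, in LAP, 284 to 408 in WT, 259 to 308 in tet-Myc, 203 to 282 in tet-YAP, 197 to 242 in tet-Myc/YAP and 116 to 208 in tumours. Some of these markers stood near the ceiling, as did Apoa1, at 45.7 to 72.2 RPKM in LAP WT where the ceiling was 43.0 to 67.3. Their sums, and the calls of such markers, therefore shift with the ceiling and alone are no measure of the number of hepatocytes. Whether transcripts of the transgenes are counted in the mouse rows is not given in the sources used here. Yap1 did not separate tet-YAP from WT (4.84 to 5.85 against 4.79 to 5.20 RPKM in R26, and 4.24 to 4.80 against 4.56 to 5.16 in LAP). Myc was 0.522 to 0.767 RPKM in R26 WT and 1.98, 2.68, 3.50 and 0.609 in the libraries labelled R26 tet-Myc, so that library 4 stood at the WT level, and in LAP the libraries labelled tet-Myc (0.913 to 1.87) lay within the WT range of 0.63 to 3.20. Neither gene therefore checks those labels.

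**Figure D1:**
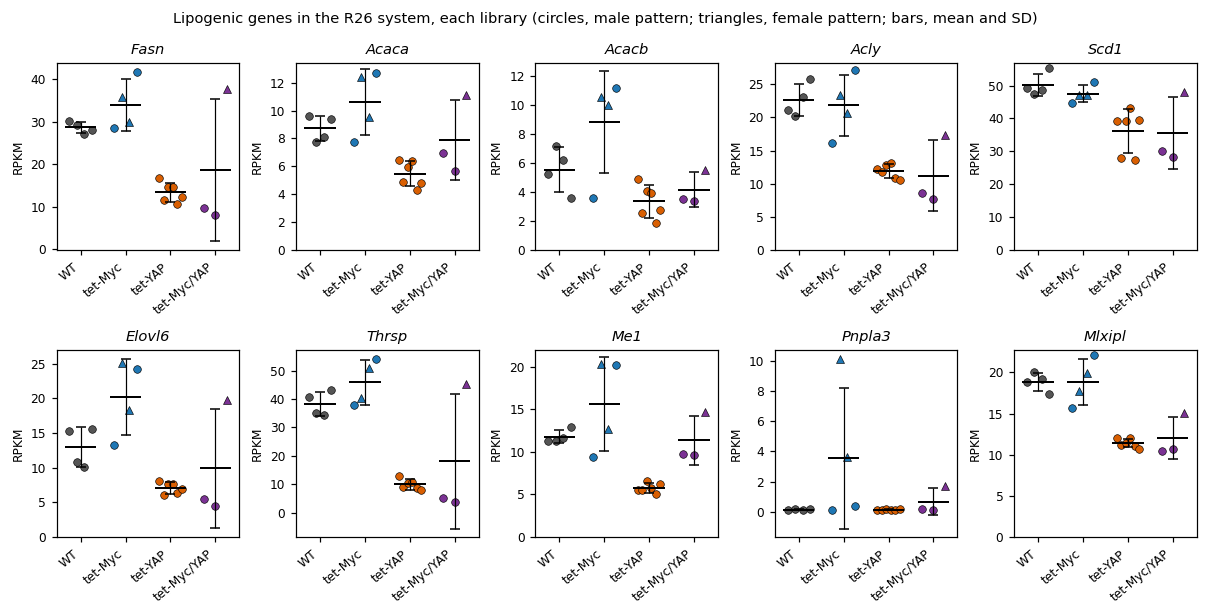
RPKM of the 10 genes in each R26 library by group, with the mean and SD as bars, circles for male-pattern and triangles for female-pattern libraries. The 6 tet-YAP libraries lay below all 4 WT libraries for 8 of the 10 genes, and in the tet-Myc/YAP group library 3, its only female-pattern library, lay above libraries 1 and 2 for all 10. Both counts are given without their share over all genes.

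After 2 days of YAP in the R26 system, most of the genes of fatty acid synthesis were lower. Of the 10 genes, 6 fell (Fasn, Acaca, Acly, Thrsp, Me1 and Mlxipl) and none rose, against 4.19% of all genes tested that were called lower. The median log2 difference of the 10 was -0.76, against -0.11 over all genes. For 8 of the 10 all tet-YAP libraries lay below all WT libraries, a count without its share over all genes.

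Thrsp moved most. It was at 40.7, 35.0, 34.5 and 43.2 RPKM in WT libraries 1 to 4 and at 7.96, 9.67 and 12.8 (lowest, median and highest) in the 6 tet-YAP libraries, so the groups were far apart. The log2 difference was -1.91 (SE 0.44, limma adjusted p = 0.00804), a 3.87-fold lower mean level. Fasn was at 30.3, 29.3, 27.2 and 28.0 RPKM in WT and at 10.8, 13.6 and 16.7 in tet-YAP, again without overlap, and its mean fell 2.13-fold (log2 difference -1.08, SE 0.29, limma adjusted p = 0.0177). Me1 was at 11.2, 11.3, 11.7 and 12.9 RPKM in WT and at 5.01, 5.68 and 6.64 in tet-YAP (log2 difference -0.97, SE 0.18, limma adjusted p = 0.00182). The mean of malic enzyme was thus 2.04-fold lower, without overlap between the groups.

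Acly, which supplies the acetyl-CoA, was at 21.2, 20.3, 23.2 and 25.8 RPKM in WT and at 10.6, 12 and 13.2 in tet-YAP (log2 difference -0.89, SE 0.18, limma adjusted p = 0.00337). Mlxipl, the gene of ChREBP, had the smallest spread of the 10 within tet-YAP in relation to its level. It was at 18.9, 20, 19.2 and 17.3 RPKM in WT and at 10.7, 11.3 and 12 in tet-YAP, a difference of -0.70 (SE 0.10, limma adjusted p = 0.000365). Acaca, at 7.77 to 9.64 RPKM in WT and 4.32 to 6.45 in tet-YAP, changed by -0.64 (SE 0.17, limma adjusted p = 0.0167) and was no longer called without WT library 1 (-0.59).

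The other 4 genes were not called. Scd1 was lower in every tet-YAP library (27.3 to 43.2 RPKM) than in WT (47.6 to 55.3), with a log2 difference of -0.49 that missed the size required. Elovl6 was also lower in every tet-YAP library (6.04 to 8.03 against 10.2 to 15.5 RPKM) and missed the threshold on the adjusted p (-0.81, limma adjusted p = 0.0607). Acacb overlapped between the groups (1.89 to 4.92 against 3.60 to 7.17 RPKM, -0.67, limma adjusted p = 0.108). Pnpla3 was near 0 in both, at 0.083 to 0.153 RPKM in tet-YAP and 0.12 to 0.146 in WT. The 4 WT and 6 tet-YAP libraries formed 5 close pairs, and with each pair averaged to 1 value none of the 10 genes was called (limma adjusted p = 0.101 to 0.991), with the log2 differences within 0.01 of those above. Both groups had the male pattern throughout.

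Some regulators fell alongside the enzymes. Of 20 regulators of lipogenesis 3 fell and none rose. Mid1ip1, whose protein partners that of Thrsp and promotes the polymer form of acetyl-CoA carboxylase, was at 18.2 to 21.4 RPKM in WT and 5.94 to 8.20 in tet-YAP (-1.40, SE 0.30, limma adjusted p = 0.00553). Srebf1, the gene of SREBP-1, was at 19.9 to 25.4 RPKM in WT and 9.19 to 13.9 in tet-YAP (-1.02, SE 0.29, limma adjusted p = 0.0246). Insig1, which holds SREBPs in the endoplasmic reticulum and is itself a target of them, changed by -0.57 (SE 0.19, limma adjusted p = 0.0470). Of 8 genes of glucose uptake and glycolysis tied to ChREBP, 3 fell, among them Pklr, liver pyruvate kinase (22.6 to 24.0 RPKM in WT and 9.08 to 15.6 in tet-YAP). Of 10 genes supplying acetyl-CoA and NADPH 4 fell, with Tkt (-0.51), Pgd (-0.62) and Acss2 (-0.87) the clearest, and of 17 genes of desaturation, elongation and triglyceride assembly only Acsl3 was called (-0.63, SE 0.19). The median log2 differences of these lists, in the order given, were -0.22, -0.40, -0.44 and -0.22, against -0.11 over all genes.

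Of 10 genes that fasting induces, 3 rose in the same libraries, against 2.00% of all genes called higher, none fell and 7 were not called, with a median of 0.27 over the list. Fgf21, a hormone of the fasted liver, was at 1.24, 1.57, 1.45 and 0.803 RPKM in WT and at 5.11, 11.7 and 13.3 in tet-YAP (log2 difference 2.54, SE 0.52, limma adjusted p = 0.00404). Ppargc1a, a coactivator of gluconeogenesis and oxidation, rose by 1.39 (SE 0.17) and Cyp4a14, a target of PPARα, by 2.98 (SE 0.40). Pck1, of gluconeogenesis, was at 42.1 to 58.1 RPKM in tet-YAP and 48.3 to 55.0 in WT. It stood near the ceiling in both groups (46.5 to 61.6 and 52.9 to 62.3 RPKM), so a rise could have been hidden. Circadian clock genes also differed between libraries, and 1 of 12, Per1, was called (1.43, SE 0.46). Of marker lists, the summed level of 7 stellate and fibroblast genes was 26.5 to 39.8 RPKM in tet-YAP and 41.0 to 46.4 in WT (2 fell), that of 8 hepatocyte genes 221 to 362 and 279 to 420 (1 fell), and that of 8 adipocyte genes 15.2 to 21.5 and 8.44 to 9.61, where 1 of the 3 tested, Cidec, rose. The part of feeding, of the hour of collection and of other cells in the lower lipogenic levels was not tested.

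With both transgenes for 2 days the group did not move as one. In tet-Myc/YAP libraries 1, 2 and 3 Fasn was at 9.72, 8.21 and 37.9 RPKM, and Thrsp at 5.01, 3.76 and 45.4, against 27.2 to 30.3 and 34.5 to 43.2 in WT. Libraries 1 and 2 were thus far below WT and library 3 above it for both genes. Elovl6 had the same split (5.55, 4.45 and 19.8 RPKM). Mlxipl (10.5, 10.7 and 15 RPKM) and Acly (8.61, 7.67 and 17.4 RPKM) were below all WT libraries in all 3. Over the 3 libraries, 5 of the 10 genes were called lower than WT, namely Fasn (-0.95), Acly (-1.06), Scd1 (-0.53), Thrsp (-1.91) and Mlxipl (-0.64), and none higher. Among all genes 37.6% were called lower and the median difference was -0.39, so 5 of 10 is read against a large general shift. After median-ratio rescaling only Acly and Thrsp were called, and under quantile normalization Scd1 turned to 0.02. Scd1 stood at 83.8% to 87.8% of the ceiling in tet-Myc/YAP, as in WT (82.3% to 92.9%), and the ceiling itself was lower in libraries 1 and 2.

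The lists moved little more than all genes did. Of 20 regulators 11 fell and 1 rose (median -0.59), of 10 genes for acetyl-CoA and NADPH 6 fell (-0.55), of 8 ChREBP-tied genes 4 fell (-0.53) and of 17 genes of desaturation, elongation and triglyceride assembly 7 fell (-0.49). Of 10 fasting-induced genes 3 rose and 1 fell (0.02). Markers of other cells were lower in the same libraries. Of 6 macrophage markers 5 fell, with a summed level of 35.5 to 39.0 RPKM against 77.1 to 92.7 in WT, of 6 endothelial markers 5 fell (24.7 to 25.5 against 42.1 to 47.7), of 7 stellate and fibroblast markers 3 fell (25.3 to 28.7 against 41.0 to 46.4) and of 8 hepatocyte markers 4 fell (193 to 323 against 279 to 420). Their part was not tested.

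Library 3 differed in more than the 10 genes. It had the female pattern, while libraries 1 and 2 had the male pattern of WT, and Srebf1 was at 6.64, 5.68 and 26 RPKM, Fgf21 at 15.7, 14.8 and 1.10, and Dbp, a clock-controlled transcription factor, at 0.171, 0.394 and 9.54 in libraries 1 to 3. Without library 3, 6 genes were called, Elovl6 joining the other 5 (Fasn -1.63, Thrsp -3.00, Elovl6 -1.27). Without library 1 or without library 2, Fasn and Scd1 were lost and 3 calls were left. Libraries 1 and 2 were a close pair, and averaging close pairs left Acly and Mlxipl. The parts of sex, feeding and hour in this split were not tested, and 1 library cannot tell them apart.

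Compared with tet-YAP alone, 1 of the 10 genes, Me1, was called, and it was higher, against 4.22% of all genes called higher. Of all 11263 genes 3085 were called in either direction and 475 of these were higher, so most calls were lower. Me1 was at 9.75, 9.64 and 14.7 RPKM in tet-Myc/YAP and at most 6.64 in tet-YAP (log2 difference 0.89, SE 0.19, limma adjusted p = 0.00107). All 3 libraries, including the 2 with low Fasn, therefore lay above all 6 tet-YAP libraries for the NADPH-supplying enzyme. Acaca had a difference of 0.46 (limma adjusted p = 0.0459), short of the size required, and reached it without tet-YAP library 1 or 4. The count of calls was 2 without tet-YAP library 1 or 4 or without tet-Myc/YAP library 2, and 4 without tet-Myc/YAP library 3. A test of whether Myc altered the effect of YAP, the interaction term, called none of the 10 (limma, 0 at an unadjusted p under 0.05), with Me1 at 0.57 (SE 0.27, limma adjusted p = 0.114), and 25.6% of all genes. It called 1 gene without tet-Myc library 2 or 4 and 3 genes without tet-Myc/YAP library 3.

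In the libraries labelled R26 tet-Myc none of the 10 genes was called in either direction, against 4.87% of all genes. In limma 1 of the 10 had an unadjusted p under 0.05. Scd1 stood at 87.2% to 99.8% of the ceiling in these libraries and at 82.3% to 92.9% in WT. Thrsp stood at 73.6% to 103.2% of it in tet-Myc and at 58.3% to 76.9% in WT. A rise of Scd1 or Thrsp could have been hidden in libraries near the ceiling, so the missing call does not decide whether either rose. Levels spread widely. Acacb was at 3.60, 10.5, 10 and 11.2 RPKM in libraries 1 to 4, with 3 of the 4 above the highest WT library (7.17), and Elovl6 was at 13.3, 25.1, 18.3 and 24.2 RPKM against at most 15.5 in WT. Me1 was at 9.36, 20.4, 12.7 and 20.2 RPKM. Library 1 was the lowest of the 4 for all 10 genes, and without it Acacb (0.91), Me1 (0.54) and Pnpla3 (2.40) were called higher. Pnpla3, at 0.13, 10.2, 3.61 and 0.344 RPKM, was highest in libraries 2 and 3, which had the female pattern, and the next highest level in the R26 system was 1.69 in the female-pattern tet-Myc/YAP library 3. Its difference of 1.80 (SE 0.64, limma adjusted p = 0.0768) became 0.50 with sex pattern as a covariate. Without library 4, whose Myc level was that of WT, 1 gene, Pnpla3, was called (2.26).

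**Figure D2:**
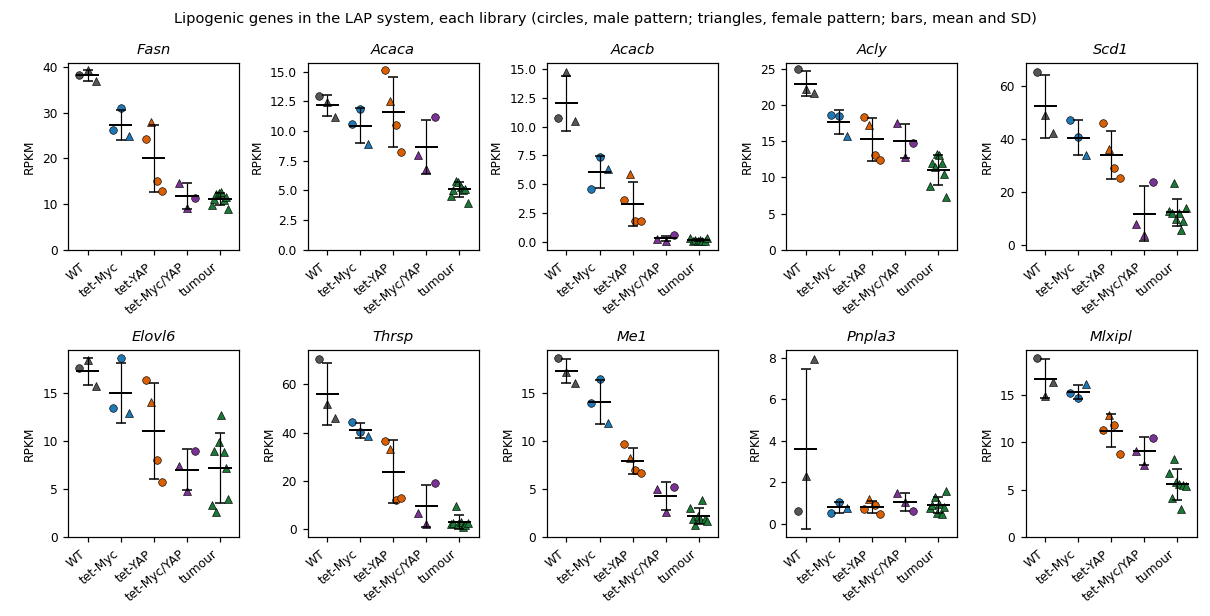
RPKM of the 10 genes in each LAP library by group, with the mean and SD as bars, circles for male-pattern and triangles for female-pattern libraries. Acacb ran from 10.5 to 14.8 RPKM in WT to at most 0.59 in tet-Myc/YAP and 0.336 in tumours.

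In the LAP system, 5 of the 10 genes, Fasn, Acacb, Acly, Me1 and Pnpla3, fell with 4 weeks of YAP and none rose, against 15.3% of all genes called lower. The median difference was -0.86, against -0.10 over all genes. The largest difference was in Acacb, which had not been called after 2 days in R26. It was at 10.8, 14.8 and 10.5 RPKM in WT and at 3.66, 5.88, 1.83 and 1.82 in tet-YAP, so the groups were apart (-1.84, SE 0.29, limma adjusted p = 0.000234). Acaca, the paralog that feeds synthesis, was at 12.9, 12.4 and 11.2 RPKM in WT and at 15.2, 12.5, 10.5 and 8.25 in tet-YAP (-0.09, limma adjusted p = 0.724), a difference that turned to 0.25 under quantile normalization. The ratio of Acaca to Acacb was 0.841 to 1.2 in WT and 2.13 to 5.74 in tet-YAP.

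Fasn was at 38.3, 39.3 and 36.9 RPKM in WT and at 24.2, 28.0, 15 and 12.8 in tet-YAP libraries 1 to 4 (-0.98, SE 0.21, limma adjusted p = 0.00251). Thrsp was at 70.7, 51.9 and 46.1 RPKM in WT and at 36.7, 33.2, 12 and 12.9 in tet-YAP, all below WT, but the spread was wide (-1.38, SE 0.58, limma adjusted p = 0.0718). The ceiling in tet-YAP was 32.9 to 45.8 RPKM, below the lowest WT level of Thrsp. Thrsp stood at 80.1%, 93.1%, 34.8% and 39.3% of it in libraries 1 to 4. In libraries 1 and 2 its lower RPKM therefore cannot be told apart from the lower ceiling. Fasn and Thrsp were both lower in libraries 3 and 4 than in 1 and 2, and so were the other 8 by their means, by 1.17-fold (Mlxipl) to 2.80-fold (Thrsp). Me1 (18.6, 17.2 and 16.1 RPKM in WT and 9.67, 8.21, 6.96 and 6.71 in tet-YAP) differed less between these pairs of libraries (1.31-fold) than from WT (2.19-fold lower mean, -1.09, SE 0.25, limma adjusted p = 0.00430). Libraries 3 and 4, a close pair, also differed in clock genes, with Dbp at 12.1, 10.7, 2.44 and 3.69 RPKM and Arntl at 0.185, 0.295, 2.52 and 1.55 in libraries 1 to 4, against 13.5 to 21.6 and 0.156 to 0.174 in WT. The part of the hour of collection was not tested.

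Pnpla3 was called (-1.19, SE 0.43, limma adjusted p = 0.0412) on WT levels of 0.619, 2.31 and 7.96 RPKM, of which the 2 higher came from female-pattern libraries, and on 0.495 to 1.19 in tet-YAP. It was not called with sex pattern as a covariate (-0.86) or without WT library 3 (-0.44). Acly (24.9, 22.2 and 21.7 RPKM in WT, 18.4, 17.2, 13 and 12.4 in tet-YAP, -0.59, SE 0.18, limma adjusted p = 0.0206) lost its call without any of WT 1, WT 2, tet-YAP 3 and tet-YAP 4. The number of calls was 3 without WT library 2, tet-YAP library 3 or tet-YAP library 4, 3 with tet-YAP libraries 3 and 4 averaged, and 2 under quantile normalization. Acacb was called in each of these.

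Of the pathway lists, 10 of 17 genes of desaturation, elongation and triglyceride assembly fell, led by Lpin1, a phosphatidate phosphatase that is also under clock control (24.4 to 32.1 RPKM in WT and 3.78 to 11.5 in tet-YAP, -2.05, SE 0.32), with Dgat2 (-0.76) and Fads2 (-0.92). Of 10 genes supplying acetyl-CoA and NADPH 7 fell and 1 rose, Acss2 (-0.82), Slc25a1 (-0.83), the citrate carrier, and Idh1 (-0.59) being the clearest. Of 20 regulators 7 fell and 1 rose, among them Scap (-1.04), the escort of SREBPs, and Srebf1 (-0.78, SE 0.21, limma adjusted p = 0.00889), and of 8 ChREBP-tied glycolytic genes 3 fell, Pklr by 1.21 (SE 0.35). Of 10 fasting-induced genes 1 rose, Igfbp1 (1.75, SE 0.39), and none fell, and of 12 clock genes 6 fell and 1 rose. Of all 12591 genes 3373 were called in either direction. Of 6 macrophage markers 4 rose, and their summed level was 85.9 to 116 RPKM in tet-YAP and 43.1 to 76.6 in WT. Of 8 hepatocyte markers 4 fell, with a summed level of 203 to 282 RPKM below the 284 to 408 of WT, and of 5 cholangiocyte and progenitor markers tested 2 rose, with a summed level of 6 genes of 19.9 to 29.0 RPKM against 8.52 to 11.9. The medians were -0.67 for triglyceride assembly, -0.58 for acetyl-CoA and NADPH, -0.50 for regulators and -0.48 for the ChREBP-tied genes, against -0.10 over all genes. In bulk RNA, fewer hepatocytes and less RNA of a gene per hepatocyte cannot be told apart, and the part of other cells was not tested.

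With both transgenes for 4 weeks, 8 of the 10 genes fell and none rose, against 14.0% of all genes called lower. The median of the 10 was -1.48, while that of all genes was 0.11. For the same 8 genes all 3 tet-Myc/YAP libraries lay below all WT libraries, a count without its share over all genes. Acacb was at 0.226, 0.114 and 0.59 RPKM, a 38.7-fold lower mean than WT (-3.98, SE 0.31, limma adjusted p = 1.79e-08). The ratio of Acaca to Acacb was 19 to 59.7. Acaca itself was at 8.01, 6.82 and 11.2 RPKM and missed the size required (-0.49, limma adjusted p = 0.0485).

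Scd1 was at 7.78, 3.88 and 23.6 RPKM in tet-Myc/YAP and 65.3, 48.9 and 42.3 in WT (-2.44, SE 0.45, limma adjusted p = 0.000307), and Thrsp at 6.79, 2.29 and 19.2 RPKM (-2.92, SE 0.62, limma adjusted p = 0.000926). Library 3, which had the male pattern whereas 1 and 2 had the female one, kept the highest level of both. Fasn (14.7, 9.21 and 11.4 RPKM, -1.68, SE 0.22) and Me1 (4.98, 2.56 and 5.22 RPKM, -1.96, SE 0.27) were lower with less spread. Mlxipl (9.12, 7.59 and 10.5 RPKM) changed by -0.86 (SE 0.24, limma adjusted p = 0.00722). The calls of Elovl6 (-1.28, SE 0.46, limma adjusted p = 0.0314) and Acly (-0.60, SE 0.20, limma adjusted p = 0.0191) were the weakest. Elovl6 kept its call only when tet-Myc/YAP library 3 was left out among the 6 libraries, with a log2 difference of -1.04 to -1.46, and Acly lost its call without WT library 1 (-0.54) or tet-Myc/YAP library 2 (-0.50).

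Scd2, a desaturase that is low in normal adult liver, moved against Scd1. It was at 1.6, 1.41 and 1.82 RPKM in WT and at 30.6, 20.1 and 7.16 in tet-Myc/YAP (3.02, SE 0.50, limma adjusted p = 9.97e-05). It was higher in libraries 1 and 2, where Scd1 was lowest, than in library 3. It was the only one of 17 genes of desaturation, elongation and triglyceride assembly to rise, while 12 fell, with Lpin1 (-2.70), Elovl5 (-1.58), which elongates polyunsaturated fatty acids, and Fads1 (-1.40) the clearest. Of 20 regulators 10 fell and 2 rose, led by Scap (-1.67), Insig2 (-1.34) and Mlycd (-1.24), the decarboxylase that degrades malonyl-CoA. Of 10 genes for acetyl-CoA and NADPH 4 fell, Acss2 by 1.45 (SE 0.19), and of 8 ChREBP-tied genes 3 fell, Pklr by 1.96 (SE 0.38). The medians of these 4 lists were -0.68, -0.69, -0.45 and -0.50, against 0.11 over all genes, and of 10 fasting-induced genes 4 fell and 3 rose (median -0.72). Of 12 clock genes 7 fell, 1 rose and Dbp was at 2.04 to 3.96 RPKM, and of 5 cholangiocyte and progenitor markers tested 4 rose, Krt7 being at 21.4, 14.5 and 1.24 RPKM against 0.258 to 0.385 in WT. Of all 12591 genes 4598 were called in either direction. The summed level of the 6 cholangiocyte and progenitor markers was 36.6 to 63.3 RPKM against 8.52 to 11.9 in WT, and 3 of 8 hepatocyte markers fell (197 to 242 against 284 to 408). The part of these in the lipogenic levels was not tested.

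Compared with LAP tet-YAP alone, the double transgene had lower Fasn (-0.69), Acacb (-2.14), Scd1 (-1.81), Thrsp (-1.54) and Me1 (-0.86), that is 5 of 10 genes against 8.44% of all genes called lower, and none higher. Acacb did not overlap (at most 0.59 RPKM against at least 1.82, SE 0.29, limma adjusted p = 6.7e-05), and neither did Scd1 (at most 23.6 against at least 25.0 RPKM, SE 0.42, limma adjusted p = 0.00369). Scd1 stood at 76.1% to 101.1% of the ceiling in tet-YAP, so its difference may be understated. The count of calls was 3 without tet-YAP library 2 and 2 without tet-Myc/YAP library 2, and Acacb and Scd1 stayed called in both. The interaction term called none of the 10 (limma, 3 at an unadjusted p under 0.05) and 15.7% of all genes. For Acacb it was -1.21 (SE 0.42, limma adjusted p = 0.0552), called with a pseudocount of 0.1 (-2.08) and after rescaling (-1.34). It called 1 gene without WT library 1, tet-YAP library 3 or tet-YAP library 4, and 2 without tet-Myc/YAP library 3.

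In the libraries labelled LAP tet-Myc none of the 10 was called, against 0.0238% of all genes, and 3 had an unadjusted p under 0.05 in limma. All 10 means were lower than WT, and 4 genes did not overlap with it, a count without its share over all genes. Acacb was at 4.60, 7.37 and 6.29 RPKM (-0.93, SE 0.31, limma adjusted p = 0.244), Fasn at 26.1, 31.0 and 24.9 (-0.48, limma adjusted p = 0.364), Acly at 18.6, 18.5 and 15.7 (-0.37, limma adjusted p = 0.410) and Thrsp at 44.5, 40.1 and 38.6 (-0.43, limma adjusted p = 0.801). Thrsp stood at 89.8%, 99.0% and 96.1% of the ceiling in these libraries, and the ceiling was 40.1 to 49.6 RPKM against 43.0 to 67.3 in WT. Its lower RPKM therefore cannot be told apart from the lower ceiling. Under quantile normalization Elovl6 (0.03) and Mlxipl (0.10) turned positive.

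**Figure D3:**
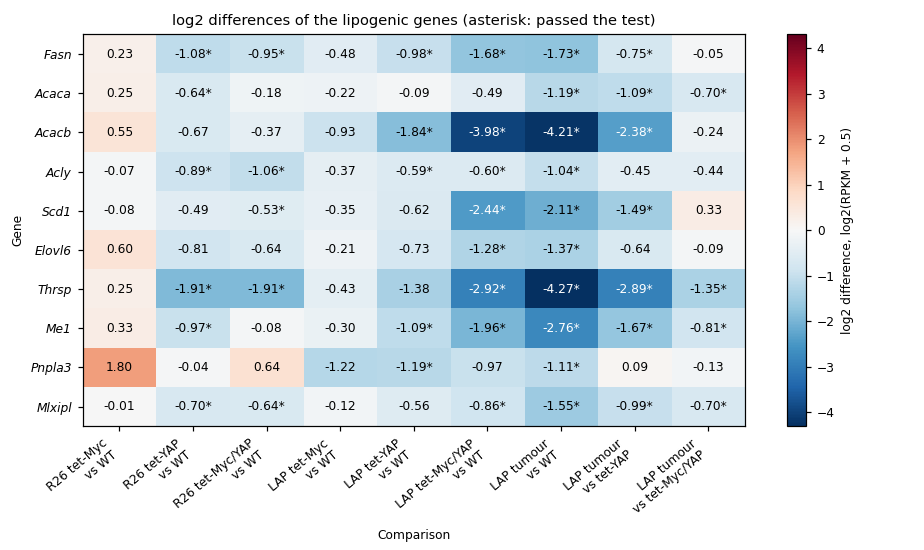
log2 differences, on the scale log2(RPKM + 0.5), of the 10 genes (rows) in 9 comparisons (columns), blue for lower and red for higher in the group named first, with an asterisk where the call was made. All 10 genes were called lower in tumours than in WT, from -1.04 (Acly) to -4.27 (Thrsp), and none in either tet-Myc comparison.

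In tumours of tet-YAP mice all 10 genes were lower than in LAP WT, against 31.3% of all genes, with a median of -1.64 against -0.14 over all genes. For 9 of the 10, all but Pnpla3, the 8 tumours lay below all WT libraries, a count without its share over all genes. Acacb was at 0.054, 0.145 and 0.336 RPKM (lowest, median and highest), 68.8-fold below the WT mean of 12 (-4.21, SE 0.25, limma adjusted p = 2.49e-10). Acaca was at 3.94, 5.12 and 5.83 RPKM, 2.39-fold below (-1.19, SE 0.16, limma adjusted p = 3.79e-06). Both carboxylases were therefore lower, and the ratio of Acaca to Acacb reached 12.4 to 93.8.

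Thrsp was at 0.797, 2.18 and 9.51 RPKM in tumours, 19.1-fold below WT (-4.27, SE 0.51, limma adjusted p = 9.29e-07). Tumour 3 alone was above 2.73. Scd1 was at 5.78, 11.9 and 23.3 RPKM with tumour 3 again the highest (-2.11, SE 0.37, limma adjusted p = 7.51e-05), and Me1 at 1.25, 1.88 and 3.87 (-2.76, SE 0.22, limma adjusted p = 8.36e-09). Both Scd1 and Thrsp were at the ceiling in WT, which in RPKM was 43.0 to 67.3 there and 28.7 to 38.6 in tumours, and they reached at most 70.7% and 28.8% of it in tumours.

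Mlxipl was at 2.93, 5.53 and 8.27 RPKM in tumours, 3.02-fold below WT (-1.55, SE 0.20, limma adjusted p = 1.86e-06). Fasn was the most even gene, at 8.94, 11.3 and 12.7 RPKM (-1.73, SE 0.18, limma adjusted p = 2.39e-07). Elovl6 varied most in relation to its level apart from Thrsp and Acacb, at 2.57, 8.01 and 12.7 RPKM (-1.37, SE 0.38, limma adjusted p = 0.00387), and Acly was at 7.24, 11.7 and 13.2 (-1.04, SE 0.16, limma adjusted p = 1.87e-05). These last 2 genes were not called under quantile normalization (-0.78 and -0.28). Pnpla3 was at 0.498, 0.873 and 1.61 RPKM (-1.11, SE 0.38, limma adjusted p = 0.0168), and without WT library 3 its difference was -0.35 and not called. All 8 tumours had the female pattern, and with sex pattern as a covariate the 10 calls stood.

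Of the other lists, 14 of 17 genes of desaturation, elongation and triglyceride assembly fell in tumours and 1 rose, Scd2 (12, 21.6 and 29.0 RPKM, 3.24, SE 0.41). Elovl5 (-1.96), Fads1 (-1.68) and Fads2 (-1.64), of polyunsaturated fatty acid synthesis, had the smallest adjusted p. Of 20 regulators 14 fell and 1 rose, with Scap (-1.85), Mlycd (-2.06) and Nr1h3 (-1.55), the liver X receptor α, the clearest, and Srebf1 at 12, 15 and 20.5 RPKM against 30.2 to 43.4 in WT. Of 8 ChREBP-tied genes 7 fell, among them Pklr (-2.68) and Khk (-1.94), ketohexokinase. Of 10 genes for acetyl-CoA and NADPH 8 fell and 1 rose, with Acss2 (-1.77), Idh1 (-1.23) and Slc25a1 (-1.48) the clearest. Of 10 fasting-induced genes 6 fell and 1 rose, so Cpt1a (-1.14), of fatty acid oxidation, was lower together with the genes of synthesis, while Igfbp1 was higher (2.51, SE 0.35). The medians were -1.23, -1.24, -1.76, -1.02 and -1.13 for these 5 lists in order, against -0.14 over all genes.

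Markers of other cells moved in the tumours. All 5 cholangiocyte and progenitor markers tested rose, with a summed level of 6 genes of 41.2 to 82.3 RPKM against 8.52 to 11.9 in WT, all 3 neutrophil markers rose, and all 8 hepatocyte markers fell, with a summed level of 116 to 208 against 284 to 408 RPKM. The ceiling in tumours was 28.7 to 38.6 RPKM. The lowest WT levels of Alb (40.7), Apoa1 (45.7), Apob (42.7) and Ahsg (41.2) lay above it. These markers could therefore not reach their WT levels in tumours, and their calls include the lower ceiling. The summed level of 8 adipocyte markers was 6.16 to 11.2 RPKM in tumours and 7.47 to 9.66 in WT. Of these, Adipoq, Plin1, Lep and Retn were at no more than 0.1 RPKM in any library, and of the 3 tested 1 rose and 2 fell. Of 12 clock genes 7 fell and 2 rose. The part of cell composition and of the hour of collection in the lower lipogenic levels was not tested.

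Compared with tet-YAP livers, 7 of the 10 genes were lower in tumours, against 15.5% of all genes called lower. For these 7 all tumours lay below all tet-YAP libraries, a count without its share over all genes. Acacb (-2.38, SE 0.23, limma adjusted p = 4.39e-07), Thrsp (-2.89, SE 0.46, limma adjusted p = 9.58e-05), Me1 (-1.67), Scd1 (-1.49), Acaca (-1.09), Mlxipl (-0.99) and Fasn (-0.75) were called. Acly (-0.45), Elovl6 (-0.64) and Pnpla3 (0.09) were not, and the last turned to -0.52 with sex pattern as a covariate. Compared with tet-Myc/YAP livers, 4 of the 10 were lower, against 26.4% of all genes, namely Acaca (-0.70, SE 0.16, limma adjusted p = 0.00250), Mlxipl (-0.70, SE 0.20, limma adjusted p = 0.00862), Me1 (-0.81, SE 0.22, limma adjusted p = 0.00784) and Thrsp (-1.35, SE 0.51, limma adjusted p = 0.0376). The median of the 10 was -0.34 and that of all genes -0.29. After median-ratio rescaling 1 gene was called, and the count was 2 without tet-Myc/YAP library 1. Without tet-Myc/YAP library 3 it was also 2, and Scd1 was called higher in tumours (1.0). For Fasn, Acacb, Scd1, Elovl6 and Pnpla3 the difference from tet-Myc/YAP was between -0.24 and 0.33 and not called, and those of Fasn and Elovl6 turned to 0.26 and 0.21 after rescaling.

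**Figure D4:**
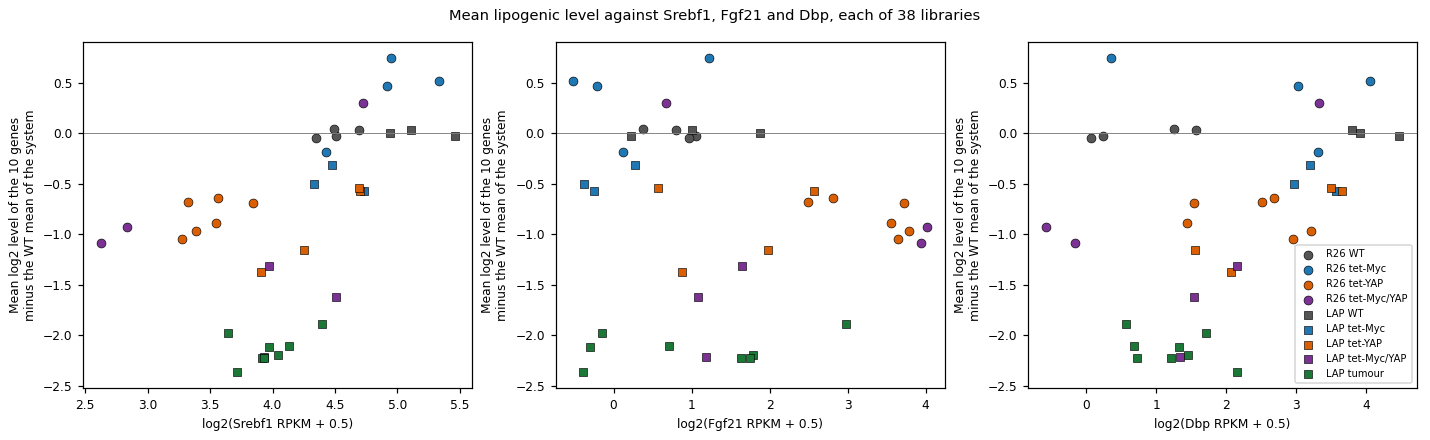
Mean of log2(RPKM + 0.5) over the 10 genes minus the WT mean of the system (y axis) against log2(RPKM + 0.5) of Srebf1, Fgf21 and Dbp (x axes) in each of 38 libraries, circles for R26 and squares for LAP, colours for groups. The R26 libraries with high Fgf21 are the 6 tet-YAP libraries and tet-Myc/YAP libraries 1 and 2, and in LAP the libraries with low Dbp are tet-YAP 3 and 4, tet-Myc/YAP and the tumours.

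Across libraries the genes kept close company, apart from Pnpla3. Among the 36 pairs of the other 9 genes the Pearson correlation of log2 levels had a median of 0.84 over 17 R26 libraries (0.64 to 0.98) and of 0.84 over 21 LAP libraries (0.54 to 0.95). Pairs with Pnpla3 had a median of 0.48 in R26 and 0.26 in LAP. These values describe libraries that share groups, depth and the ceiling, so they follow the group differences above and carry no test. Among 11138 genes tested in both systems, the 5 whose levels, centred on the WT of each system, were most like the mean of the 10 over 38 libraries were Pklr (r = 0.969), Gramd1c (0.953), Acss2 (0.953), Sult5a1 (0.947) and Ebpl (0.947). Pklr was at 29.6 to 41.3 RPKM in LAP WT and at 2.99 to 9.18 in tumours, and in R26 tet-Myc/YAP it was at 12.7, 11.5 and 21.2, with library 3 again the highest. Acss2, cytosolic acetyl-CoA synthetase, had the same order (2.60, 2.31 and 6.44 RPKM).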

How the data were processed

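Liver RNA was measured by RNA-seq in 38 libraries. Per the labels, total RNA went into TruSeq RNA v2 libraries without the poly-T step, and this kit marks no strand. Tools named in the submitters' processing notes are DESeq2, featureCounts 1.4.5-p1, SAMtools and TopHat2 2.0.8, with the build mm9, so coordinates printed here come from RefSeq GRCm38.p6 and not from the files. The authors deposited RPKM per gene and library in 1 table per system, normalized separately, which is why tests stay within a system. A further deposited table holds the authors' own comparisons (mean counts, log2 fold changes and adjusted p-values) and was not used. Columns were assigned to groups by their names, which carry no replicate number. Of 21671 rows, 27 with a symbol turned into a date were left out.

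Depth was estimated from the spacing of low RPKM values, of which 79.0% (R26) and 86.79% (LAP) lay within 0.12 of a whole number of reads. At 1 RPKM a kilobase of gene then carries 23.5 to 56.3 reads, so low genes such as Pnpla3 and Acacb are the least precise. No count test was run.

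Values were taken as log2(RPKM + 0.5), genes with at least 1 RPKM in 3 libraries were kept, and group means were fitted in limma 3.58.1 (R 4.3.3, eBayes with a trend), with two-sided p-values adjusted over all genes tested in 13 comparisons. The fit was tested on simulated data first. Genes named are the 10 members, Myc and Yap1, in each pathway list up to 3 called genes by adjusted p, and the 5 genes most like the members' mean. The other genes named (Srebf1, Fgf21, Pck1, Dbp, Arntl, Scd2, Insig1 and Krt7 where outside that rule) were chosen after their values were seen, and some genes that the rule names are not reported here. The members, lists and tests were chosen with earlier results of these data known. Alternatives were other pseudocounts and filters, rescaling, fewer groups, sex pattern, averaged close pairs and leaving out each library. Averaging LAP tet-YAP 3 and 4 was chosen after seeing the data. Figures were drawn with matplotlib 3.10.9.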

Additional observations from a re-analysis of the deposited data

Results flagged for a closer look

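In 50 groups of 4 to 8 libraries, 5 for each gene, the library farthest from the rest was looked for, and 3 were flagged. Chance alone would mark about 5% of groups, so 3 of 50 is close to the chance share. Thrsp was at 9.51 RPKM in tumour 3 and at 0.797 to 2.73 in the other 7 tumours. Scd1 was at 23.3 RPKM in the same tumour and at 5.78 to 14.0 in the others. Acacb was at 3.60 RPKM in R26 tet-Myc library 1 and at 10 to 11.2 in libraries 2 to 4. Pnpla3 in tet-Myc/YAP lay on opposite sides of the WT mean in the 2 systems, but single libraries carried both. In R26 its mean was 0.672 RPKM, with libraries 1 and 2 at 0.195 and 0.135 beside a WT range of 0.12 to 0.146 and library 3 at 1.69. In LAP its mean was 1.06 RPKM, with all 3 libraries below the WT mean, which WT library 3 at 7.96 raised, and above WT library 1 at 0.619. The gene was called in neither comparison, its R26 difference was -0.22 with sex pattern as a covariate, and the difference between systems was not tested.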

How the results depend on the processing

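No paired analysis was possible because the columns of both tables name only the group and carry no replicate number, so no replicate block could be fitted. Outside the fits that leave out a library, the number of the 10 genes called stayed within 1.5 times the value given in 100 of 121 counts, and 794 of 898 single differences kept direction and call. A single called difference changed sign, Scd1 in R26 tet-Myc/YAP against WT under quantile normalization (0.02). The counts that changed were as follows. R26 tet-Myc/YAP against WT gave 2 under median-ratio rescaling, quantile normalization and averaged close pairs. R26 tet-YAP against WT gave 0 with averaged close pairs. R26 tet-Myc/YAP against tet-YAP gave 2 under rescaling and under quantile normalization and 4 in male-pattern libraries, and the R26 interaction gave 1, 1 and 3 there. LAP tet-YAP against WT gave 3 under rescaling, 2 under quantile normalization and 3 with averaged close pairs. LAP tet-Myc/YAP against tet-YAP gave 3 when only those groups were fitted. The LAP interaction gave 1 at a pseudocount of 0.1, under rescaling and with averaged close pairs, and 4 under quantile normalization. LAP tumour against tet-Myc/YAP gave 1 under rescaling, quantile normalization and in female-pattern libraries. The causes were not tested.

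Differences that changed sign and were not called in the fit given were as follows. In R26 tet-Myc against WT these were Mlxipl (0.01 under rescaling, 0.03 under quantile normalization), Acly (0.01) and Scd1 (0.10) under quantile normalization, and Fasn (-0.16) and Thrsp (-0.40) with sex pattern as a covariate. In R26 tet-YAP against WT it was Pnpla3 (0.01, quantile). In R26 tet-Myc/YAP against WT they were Acaca (0.23 and 0.25), Me1 (0.35 and 0.44) under rescaling and quantile normalization, Acacb (0.02, rescaling), Me1 (0.02, averaged close pairs) and Pnpla3 (-0.22, sex covariate). In LAP they were Elovl6 (0.03) and Mlxipl (0.10) in tet-Myc and Acaca (0.25) in tet-YAP against WT under quantile normalization, Pnpla3 (-0.52, sex covariate) in tumours against tet-YAP, and in tumours against tet-Myc/YAP Fasn (0.26 and 0.39) and Elovl6 (0.21 and 0.28) under rescaling and quantile normalization, Pnpla3 (0.09, rescaling) and Elovl6 (0.09, female-pattern libraries).

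Leaving out 1 library at a time gave these ranges of genes called. R26: tet-Myc 0 to 3, tet-YAP 5 to 7, tet-Myc/YAP 3 to 6, tet-Myc/YAP against tet-YAP 1 to 4, interaction 0 to 3. LAP: tet-Myc 0 to 0, tet-YAP 3 to 5, tet-Myc/YAP 6 to 9, tet-Myc/YAP against tet-YAP 2 to 6, interaction 0 to 2, tumour against WT 9 to 10, against tet-YAP 7 to 8 and against tet-Myc/YAP 2 to 5. Ranges that crossed 0 were R26 tet-Myc Acly (-0.18 to 0.07) and Mlxipl (-0.09 to 0.08), R26 tet-Myc/YAP Acaca (-0.44 to 0.02) and Me1 (-0.27 to 0.02), LAP tet-YAP Acaca (-0.23 to 0.05), tumour against tet-YAP Pnpla3 (-0.04 to 0.21), and tumour against tet-Myc/YAP Fasn (-0.21 to 0.11), Scd1 (-0.24 to 1.0), Elovl6 (-0.33 to 0.09) and Pnpla3 (-0.35 to 0.07). The number of all genes called moved by over 1.5 times in each of the 13 comparisons under at least 1 alternative, most in R26 tet-YAP (697, and 25 with averaged close pairs), R26 tet-Myc (548, and 53 with averaged close pairs) and LAP tet-Myc (3, and 0 to 70), and outside the fits that leave out a library in the others from 4751 to 2244 (R26 tet-Myc/YAP, quantile), 3085 to 1784, 2883 to 1191 (R26 interaction), 3373 to 1710 (LAP tet-YAP, quantile), 4598 to 2565, 3638 to 2039, 1975 to 873 or 3384 (LAP interaction), 6651 to 4068, 3199 to 1833 and 4154 to 2213 at the most. Leaving out a library moved 4 of these further, LAP tet-Myc to 224 (without tet-Myc 3), the LAP interaction to 213 and LAP tet-Myc/YAP against tet-YAP to 1734 (both without tet-Myc/YAP 1), and LAP tet-YAP to 1643 (without WT 1).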

Other observations

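One member of the adipocyte list stood apart in R26 tet-YAP. Cidec, which encodes a lipid droplet protein, was at 1.31 to 1.75 RPKM in R26 WT and at 6.65, 11 and 12.5 (lowest, median and highest) in the 6 tet-YAP libraries, while Fasn and Thrsp were lower in the same libraries. In R26 tet-Myc/YAP it was at 1.87, 1.89 and 1.12 RPKM, and in LAP tet-YAP at 0.913 to 2.02. It was chosen after its values were seen.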
